A study of Macaca mulatta with 21 samples.

Results

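An induced pluripotent stem cell line of rhesus macaque made from fetal fibroblasts was set against a pair of lines made from adult skin fibroblasts. The comparison used 9 of the 21 arrays of the series, 3 from RiPS1, 3 from RiPS2 and 3 from RiPS3, and the adult-derived level was the mean of the RiPS2 mean and the RiPS3 mean, so that each line counted equally. RiPS1 is labelled male and came from a fetal donor. RiPS2 is labelled female with a donor aged 10 years, and RiPS3 is labelled female with a donor aged 8 years. All 3 lines were made with retroviruses carrying OCT4, SOX2, Klf4 and cMYC, and all were grown on inactivated mouse embryonic fibroblast feeders and picked by hand as undifferentiated colonies. The labels call the fibroblast source of RiPS1 fetal, while their account of how the lines were made names adult skin fibroblasts for the induced lines in general. The embryonic lines gave a further comparison: ORMES23, a male embryonic stem cell line from an embryo fertilized in vitro, CRES-1, a male line from a cloned (SCNT) embryo, and CRES-3, a female line from a cloned embryo. Skin fibroblasts from the biopsy of an adult female aged 8 years completed the 7 lines of the series.

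Each induced line was a single line with 3 biological replicates, A, B and C. Donor stage, labelled sex and line identity therefore coincide in this comparison and cannot be told apart. The tests below measure differences between these cultures, with the spread between arrays of a line as the error.

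Reprogramming with these factors returns a somatic cell to a pluripotent state, in which the cells form tight epithelial colonies held by cadherins, claudins and desmosomes. Parental imprints, the DNA methylation marks that keep one parental copy of certain genes silent, normally persist through life and are known to vary between pluripotent lines.

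The values are log2 intensities per probe set as deposited, and they lay between 2.09 and 14.7 over 52865 probe sets, with array medians between 4.98 and 5.14. A probe set with a single gene symbol was tested where it reached log2 5 on at least 3 of the 9 arrays, which gave 10666 genes, 10244 of them autosomal. Pairs of induced arrays correlated at 0.9737 to 0.9928 across probe sets. The mean level of 22 pluripotency genes was log2 8.94 to 9.05 on the RiPS1 arrays, 8.89 to 8.95 on the RiPS2 arrays and 8.72 to 9.21 on the RiPS3 arrays, against 5.82 to 6.09 on the fibroblast arrays. The labelled sexes could not be checked with SRY, whose probe sets did not separate the labelled males from the labelled females. A probe set of SRY averaged 5.19 in RiPS1 against 4.19 to 4.55 in the other lines, males included. The other was highest in the female CRES-3, at 6.08.

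Across autosomes, 163 genes were higher in RiPS1 than in the adult-derived lines (1.59% of those tested) and 68 were lower (0.664%), which makes 231 in all (2.25%). A gene was called in limma at a Benjamini-Hochberg adjusted p under 0.05 and a fold change of at least 2. The median log2 difference over all autosomal genes was -0.004. RiPS2 and RiPS3 differed from each other in 125 autosomal genes (1.22%), a count that moved with single arrays, from 39 without RiPS3 replicate B to 259 without RiPS2 replicate B, with 56 without RiPS2 replicate A, 60 without RiPS2 replicate C, 228 without RiPS3 replicate A and 62 without RiPS3 replicate C. Values of the genes nearest the fold limit were 1.0 for HYCC1 and -1.0 for CRHBP and MAMU-A just inside, and 1.0 for CORO2A and DDX59 and -1.0 for SLU7 just outside.

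Genes that were also called in the same direction against RiPS2 alone and against RiPS3 alone are the agreeing genes. There were 85 of them higher in RiPS1 (0.83% of autosomal genes) and 32 lower (0.312%). Without RiPS1 replicate A the higher count was 56. The pairwise comparisons share the RiPS1 arrays, so this agreement is a selection and not a repeat. The median size of the difference was log2 1.37 for the higher genes and 1.86 for the lower ones, with maxima of 3.40 and 3.77. In 116 of the 117 agreeing genes the RiPS1 arrays lay wholly outside the 6 adult-derived arrays, where 13.7% of all autosomal genes did so, and the selection itself favours such genes. The exception was the histone gene H2AC16. In 68 of the 117 the RiPS1 arrays also lay outside all 15 other pluripotent arrays, against 4.95% of all autosomal genes. Of the 85 higher genes, 5 passed the filter on low values through their RiPS1 arrays alone (EBF2, LPAR5, PTPRR, RBMS3 and TRIM58), and 11 of the 32 lower genes had no RiPS1 array at log2 5. Those 11 passed the filter through their adult-derived arrays alone, the side where they were high. A p lends no support to genes that passed on 1 side alone. RiPS2 and RiPS3 themselves differed in 2 of the 117, HOXD1 and MAMU-AG.

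**Figure D1:**
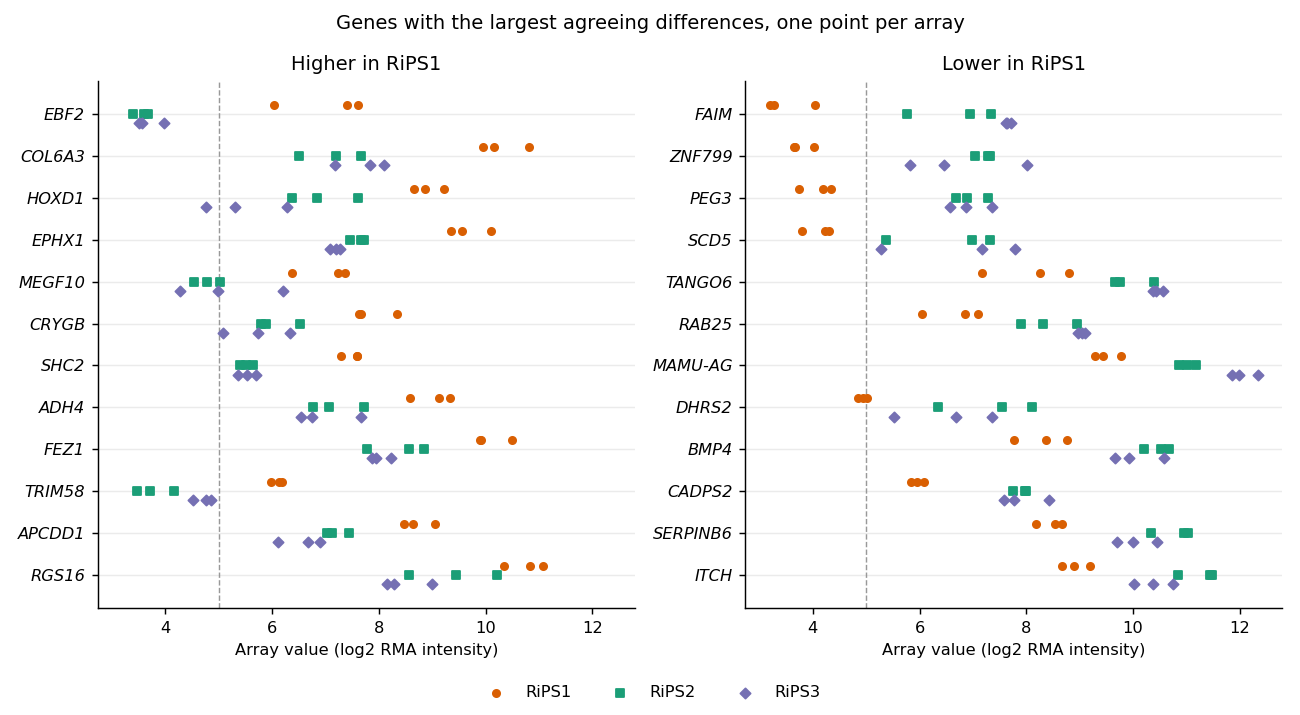
Log2 RMA intensity of the 12 named genes with the largest agreeing rise (left) and fall (right) in RiPS1; each point is an array, 3 per line, and the dashed line marks the filter at log2 5. The RiPS1 points do not overlap the RiPS2 and RiPS3 points in any gene shown, which the choice of these genes required, and among these 3 lines EBF2 and TRIM58 reach log2 5 in RiPS1 alone.

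EBF2, a transcription factor of the EBF family, was above log2 5 in RiPS1 but not in the adult-derived lines. Its values were log2 7.62, 7.40 and 6.03 on the RiPS1 arrays, 3.60, 3.67 and 3.39 on the RiPS2 arrays and 3.97, 3.50 and 3.57 on the RiPS3 arrays. No adult-derived array reached log2 5, and the fibroblasts averaged 3.60. The embryonic lines averaged 3.59 in ORMES23, 4.78 in CRES-1 and 5.27 in CRES-3, and CRES-3 replicate B, at 6.14, was above RiPS1 replicate C. RiPS1 was at least 4.04-fold higher than the adult-derived lines, counted from log2 5. No p is given, since the gene entered the test through its RiPS1 arrays alone and had to differ. Without any 1 of the RiPS1 arrays EBF2 no longer passed the filter on low values.

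COL6A3, a chain of type VI collagen in the matrix around fibroblasts, was at log2 10.81, 10.15 and 9.96 in RiPS1, at 6.51, 7.19 and 7.66 in RiPS2 and at 8.09, 7.84 and 7.17 in RiPS3. The RiPS1 level lay near that of the fibroblasts (10.50) and above the embryonic lines, which averaged 7.25 in ORMES23, 7.46 in CRES-1 and 8.16 in CRES-3. The rise was 7.46-fold (log2 2.90, SE 0.42, adjusted p = 0.000227). COL1A2, a chain of type I collagen, rose by log2 1.69 (SE 0.47, adjusted p = 0.0254), but RiPS2 replicate A, at 11.60, was above all 3 RiPS1 arrays (11.45, 11.56 and 11.50). COL1A2 was not called against RiPS2 alone, and it lost its call in 7 of 20 alternative settings, among them the omission of any RiPS1 array (adjusted p of 0.0696 to 0.09). These were the 2 called members of 25 measured fibroblast and matrix genes, both rises, where 1.59% of all autosomal genes rose; the list's median difference was 0.11. The mean level of that list overlapped between RiPS1 and RiPS2, at 8.89 to 9.07 in RiPS1, 8.37 to 9.06 in RiPS2 and 8.38 to 8.73 in RiPS3, against 11.24 to 11.41 in the fibroblasts. In such bulk RNA, fewer cells of a type and less RNA per cell cannot be told apart.

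HOXD1, an anterior member of the HOXD cluster of body-axis regulators, had log2 8.66, 9.22 and 8.87 in RiPS1, 6.85, 6.36 and 7.61 in RiPS2 and 6.28, 5.30 and 4.77 in RiPS3. All RiPS1 arrays were highest, and the adult-derived lines differed from each other too. The rise was 6.60-fold (log2 2.72, SE 0.32, adjusted p = 3.54e-05). It was the 1 called gene among 15 measured HOX genes, with a list median of -0.14, where 2.25% of all autosomal genes were called.

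EPHX1, the microsomal epoxide hydrolase that detoxifies epoxides, reached log2 10.10, 9.57 and 9.35 in RiPS1, against 7.66, 7.72 and 7.47 in RiPS2 and 7.20, 7.08 and 7.27 in RiPS3. The difference was log2 2.27 (SE 0.15, adjusted p = 5.04e-08), or 4.83-fold. SHC2, an adaptor of receptor tyrosine kinases, was at 7.59, 7.60 and 7.28 in RiPS1, at 5.64, 5.40 and 5.51 in RiPS2 and at 5.37, 5.54 and 5.70 in RiPS3, a difference of log2 1.97. Both genes had narrow groups with a wide gap between them.

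The other large rises ranged from log2 1.81 to 2.03. They were the engulfment receptor gene MEGF10 (2.03), the lens crystallin gene CRYGB (1.99), the alcohol dehydrogenase gene ADH4 (1.93), FEZ1, which acts in axon outgrowth (1.89), the ubiquitin ligase gene TRIM58 (1.85), the WNT antagonist gene APCDD1 (1.84) and RGS16, a brake on G protein signalling (1.81). In MEGF10, ADH4 and APCDD1 the RiPS1 arrays did not lie outside all 15 other pluripotent arrays. ADH4, for instance, averaged 8.72 in CRES-1 against 9.02 in RiPS1. For TRIM58 the adult-derived arrays ran from 3.47 to 4.85, so its rise is at least 2.14-fold. ADH4, FEZ1 and RGS16 were read by a further probe set each, with differences of 2.18, 1.83 and 1.77. MEGF10 differed between its probe sets, the other showing -0.16, and without RiPS1 replicate A the gene was read from that probe set, at -0.10. Since the adult-derived lines averaged just under log2 5 in MEGF10, its rise is at least 3.98-fold.

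FAIM, whose product inhibits apoptosis at the Fas receptor, was below log2 5 in RiPS1. Its arrays read log2 3.26, 4.04 and 3.19 in RiPS1, 6.94, 7.33 and 5.76 in RiPS2 and 7.62, 7.72 and 7.63 in RiPS3. No RiPS1 array reached log2 5 and each adult-derived array exceeded it. FAIM was at least 4.49-fold lower in RiPS1, counted from log2 5, with a fitted difference of -3.67, and its other probe set differed by -3.02. No p is given, since the gene entered the test through its adult-derived arrays alone.

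PEG3, a zinc finger gene of which the paternal copy is expressed, was at log2 4.19, 3.73 and 4.34 in RiPS1, at 6.69, 6.88 and 7.29 in RiPS2 and at 7.36, 6.87 and 6.57 in RiPS3. It averaged 7.73 in ORMES23, 6.88 in CRES-1 and 7.35 in CRES-3, and 4.07 in the fibroblasts. Among the 6 pluripotent lines RiPS1 alone averaged below log2 5. PEG3 was at least 3.84-fold lower in RiPS1 than in the adult-derived lines, counted from log2 5. The fitted difference was -2.86, with -2.78 at its other probe set. No p is given, since PEG3 entered the test through its adult-derived arrays alone. MEST, another paternally expressed gene, went the other way. Its values were 10.35, 10.47 and 10.18 in RiPS1, 7.93, 8.28 and 9.22 in RiPS2 and 9.68, 9.04 and 8.30 in RiPS3, a rise of log2 1.59 (SE 0.40, adjusted p = 0.015). The embryonic lines averaged 11.11 in ORMES23, 11.13 in CRES-1 and 10.52 in CRES-3, above RiPS1. All 6 adult-derived arrays lay below every embryonic array, so the adult-derived lines were the low ones among the pluripotent lines. MEST was not called against RiPS3 alone, and its adjusted p was 0.0601 without RiPS1 replicate A and 0.0683 without RiPS1 replicate B. Of 12 measured paternally expressed imprinted genes, MEST rose and PEG3 fell, where 2.25% of all autosomal genes were called, with a median of 0, and of 11 maternally expressed ones none was called, with a median of 0.09.

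ZNF799, a zinc finger gene, read log2 3.64, 4.02 and 3.66 in RiPS1, 7.28, 7.31 and 7.04 in RiPS2 and 8.02, 6.46 and 5.82 in RiPS3. The embryonic lines split on this gene, with 4.67 in ORMES23 and 3.72 in CRES-1 against 7.80 in CRES-3. ZNF799 was at least 3.97-fold lower in RiPS1 than in the adult-derived lines, counted from log2 5, with a fitted difference of -3.22. No p is given, since ZNF799 entered the test through its adult-derived arrays alone.

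MAMU-AG, a nonclassical MHC class I gene, was at log2 9.29, 9.77 and 9.44 in RiPS1, at 11.18, 10.85 and 11.01 in RiPS2 and at 11.85, 12.34 and 11.99 in RiPS3. It fell by 2.04 on the log2 scale (SE 0.18, adjusted p = 1.34e-06). MAMU-A, a classical class I gene, had a difference of log2 -1.0 and was called, but RiPS1 at 8.41, 8.29 and 8.24 lay close to RiPS2 at 8.50, 9.02 and 8.64, and it was not called against RiPS2. The gene lost its call in 8 of 20 alternative settings, for instance at -0.97 without RiPS1 replicate C and at -0.93 without RiPS2 replicate B. The probe sets of class I genes can take signal from near-identical copies, so the assignment to single genes is uncertain. IFIT3, an interferon-induced gene, rose by log2 1.20 (SE 0.24, adjusted p = 0.00364), and the 25 measured MHC and interferon genes had a median of 0.09 with 1 rise and 2 falls, where 1.59% of all autosomal genes rose and 0.664% fell.

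BMP4, a secreted signal that drives mesoderm and trophoblast fates, was at log2 8.37, 7.78 and 8.76 in RiPS1, at 10.19, 10.52 and 10.68 in RiPS2 and at 10.58, 9.66 and 9.93 in RiPS3. All RiPS1 arrays were lower, and the fall was 3.89-fold (log2 -1.96, SE 0.42, adjusted p = 0.00497). The other large falls were the fatty acid desaturase gene SCD5 (-2.54), TANGO6 (-2.12), the epithelial small GTPase gene RAB25 (-2.05), the dehydrogenase gene DHRS2 (-2.00), CADPS2, which acts in vesicle secretion (-1.95), the protease inhibitor gene SERPINB6 (-1.95) and the ubiquitin ligase gene ITCH (-1.89). RiPS1 averaged under log2 5 in SCD5 and DHRS2, whose falls are at least 3.14-fold and 3.80-fold. TANGO6 did not differ at its other probe set (0.02).

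The epithelial junction genes, which encode the claudins, cadherins, desmosome proteins and keratins of the colony, had a difference below 0 in all 19 measured members. Their median was log2 -0.68, against -0.004 over all autosomal genes, with -0.57 against RiPS2 and -0.55 against RiPS3 alone. The members called at a fold of 2 were 3, a claudin of tight junctions, CLDN7, with the related CLDN4, and the desmosome protein gene DSP. By the adjusted p alone 9 of the 19 were lower, where 3.58% of all autosomal genes were. The list contained genes that differed little, such as TJP1 (-0.16) and ESRP2 (-0.07). RiPS1 averaged below log2 5 in CDH1 (4.62), KRT18 (4.67) and TJP3 (4.91), and above it in the other members. The fibroblasts were higher in these genes, at 4.91, 5.86 and 5.29. Their differences lie near the filter level and say little. OCLN had -1.13 at an adjusted p of 0.0598 and was not called.

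CLDN7 was at log2 6.68, 6.45 and 6.07 in RiPS1, at 7.89, 7.81 and 7.56 in RiPS2 and at 8.82, 8.64 and 8.80 in RiPS3, a difference of -1.85 (SE 0.18, adjusted p = 3.3e-06). DSP fell by 1.06 (adjusted p = 0.000117) and CLDN4 by 1.04 (adjusted p = 0.00041). CLDN4 was not called against RiPS2 alone, where its difference of -0.99 missed the fold limit. RiPS1 averaged 6.40 in CLDN7 and 6.48 in CLDN4, close to the fibroblasts at 6.53 and 6.46. In DSP it averaged 9.31, against 3.57 in the fibroblasts. DSP missed the fold limit without RiPS1 replicate C (-0.97), as did CLDN4 without RiPS1 replicate B (-0.91) or RiPS3 replicate A (-0.96). RiPS1 lay below RiPS2 in all 19 genes and below RiPS3 in 18, below ORMES23 in 17 and CRES-3 in 15, but below CRES-1 in 12. Mean levels of the list were 7.80 in RiPS1 (arrays 7.77 to 7.84), 8.42 in RiPS2 (8.39 to 8.48) and 8.53 in RiPS3 (8.46 to 8.57). The embryonic lines averaged 8.26 in ORMES23, 8.02 in CRES-1 and 8.33 in CRES-3. The fibroblast arrays were at 5.13 to 5.30 over the same genes. Whether fibroblasts or other cells contributed to the RiPS1 level was not tested.

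**Figure D2:**
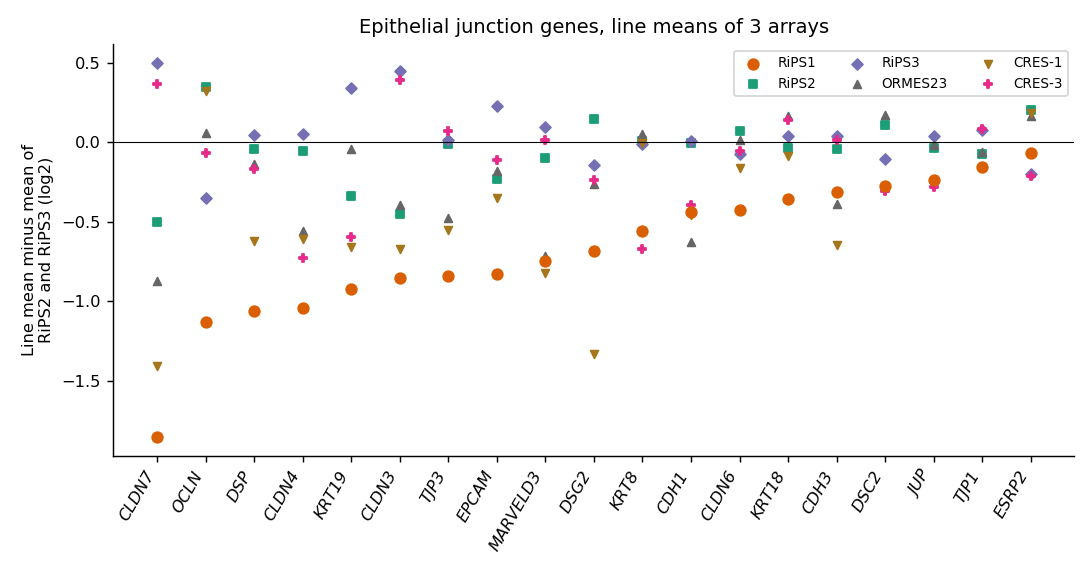
Line means (3 arrays each) of the 19 measured epithelial junction genes, less the mean of RiPS2 and RiPS3, on the log2 scale. The RiPS1 point is below 0 in all 19, from -0.07 in ESRP2 to -1.85 in CLDN7, while CRES-1 is lower than RiPS1 in some.

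Transcripts of the transduced factors did not pass the test. POU5F1 (OCT4) differed by log2 0.25 (adjusted p = 0.545), SOX2 by -0.01 (adjusted p = 0.984), KLF4 by -0.49 (adjusted p = 0.358) and MYC by 0.13 (adjusted p = 0.742). A miss of the threshold does not show that the levels were alike, and whether these probe sets also read the retroviral transcripts was not tested.

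Among lineage genes, 15 mesoderm genes had 2 falls (BMP4 and HAND1) and a median of -0.31; of all autosomal genes 0.664% fell and 1.59% rose, against which the counts of the lineage lists are to be read. HAND1, a heart and trophoblast factor, fell by 2.05 on the log2 scale with an adjusted p of 0.0498, and rested on RiPS2 replicate C (8.70) and RiPS3 replicates A and B (7.49 and 7.13). RiPS1 averaged under log2 5, so the fall is at least 2.78-fold. HAND1 passed the filter on low values through its adult-derived arrays alone, so its p lends no support. It was called neither against RiPS2 alone nor against RiPS3 alone. It lost its call in 13 of 20 alternative settings, with an adjusted p of 0.0727 without RiPS2 replicate C, 0.1 without RiPS3 replicate A and 0.0893 without RiPS3 replicate B. The 12 endoderm genes had 1 rise, the keratin gene KRT7 (1.05, adjusted p = 0.0422), and a median of 0.91. KRT7 was not called against RiPS2 alone (adjusted p = 0.179). The gene lost its call in 10 of 20 settings, among them the omission of any RiPS1 array (adjusted p of 0.0879 to 0.148). Their mean level was 7.68 to 8.55 on the RiPS1 arrays, 6.74 to 7.06 on RiPS2 and 7.20 to 8.21 on RiPS3, so RiPS1 and RiPS3 overlapped. Trophoblast genes, 14 in number, had KRT7 and HAND1 as their rise and fall and a median of -0.30.

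In the WNT list DKK3, a Dickkopf family gene, and the receptor gene FZD3 rose among 35 genes, by log2 1.59 (adjusted p = 0.000847) and 1.07 (adjusted p = 0.00974). Over all autosomal genes 1.59% rose and 0.664% fell, against which the counts of this and the following lists are to be read. FZD3 was not called against RiPS2 alone (adjusted p = 0.108). It differed by -0.72 at its other probe set and was below the fold limit without RiPS2 replicate B (0.97) or RiPS3 replicate C (0.91). In the activin and TGF-beta list of 29 genes PMEPA1, an inhibitor of SMAD signalling, rose by 1.13 (adjusted p = 0.029) and BMP4 fell. PMEPA1 was not called against RiPS2 alone (adjusted p = 0.161). It lost its call in 7 of 20 settings, among them the omission of any RiPS1 array (adjusted p of 0.072 to 0.106). TCERG1L, a transcription elongation regulator-like gene, rose by 1.75 (adjusted p = 0.0016). It belongs to 11 genes reported to differ between human pluripotent lines, a list that already held FAIM and PEG3 when it was put together and so lends no support. The remaining 15 lists had no called gene: the pluripotency network, oncofetal, maternally expressed, neural, germline, immediate early, cell cycle inhibitor, replication, DNA methylation, Polycomb, FGF, insulin-like growth factor, glycolysis, respiratory chain and trithorax or BAF genes, with medians from -0.12 to 0.26. They held 9 to 24 measured genes each, so no call is close to the 2.25% called over all autosomal genes.

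Genes at the beginning of chromosome 1 in the order of the telomere-to-telomere MMU8v2.0 assembly stood above the rest. The region was chosen after the values were seen, as the 10 leading blocks of 30 tested genes with a median of at least 0.2, so it is a description without a test. It holds 300 genes, from PGBD2 to SDHC in gene order; both of these genes lie on the long arm of chromosome 1 in human. Their median difference was log2 0.39, a fold of 1.31, with quartiles of 0.05 and 0.63. Against RiPS2 alone the median was 0.39 and against RiPS3 alone 0.37, while RiPS2 minus RiPS3 had 0.01. A difference above 0 was found in 235 of the 300 (78.3%), against 48.3% of the 781 genes on the rest of chromosome 1, where the median was -0.01. The 10 blocks had medians of 0.21 to 0.52, and the block after them -0.05.

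Each RiPS1 array showed the shift. The median over the region of each gene's value less its mean over the 15 other pluripotent arrays was taken per array. The RiPS1 arrays A, B and C stood at log2 0.35, 0.39 and 0.36, the RiPS2 arrays at -0.04, 0.03 and 0, and the RiPS3 arrays at 0.01, 0.03 and -0.03. The embryonic arrays lay between -0.07 and 0.03. Against the embryonic lines the median difference was 0.35 for ORMES23, 0.45 for CRES-1 and 0.38 for CRES-3. DNA copy number was not measured in these data.

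The region was chosen for high medians of this same difference, and that choice favours called higher genes in it. Of the 85 agreeing higher genes 18 lay in this region (21.2%), which held 2.93% of the tested autosomal genes. EPHX1, TRIM58 and RGS16 are among them. Others, named here after their values were seen, were the neuronal adhesion gene NFASC (1.70), RCSD1 (1.69), TRAF5, an adaptor of TNF receptors (1.55), LPGAT1 (1.47), the basement membrane gene NID1 (1.43), CEP170 (1.31), KIFAP3 (1.19) and RAB4A (1.17). No agreeing lower gene lay there, although 1 gene in it was called lower against the adult-derived mean. Without the region, 67 agreeing higher genes and 133 called higher genes remained.

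**Figure D3:**
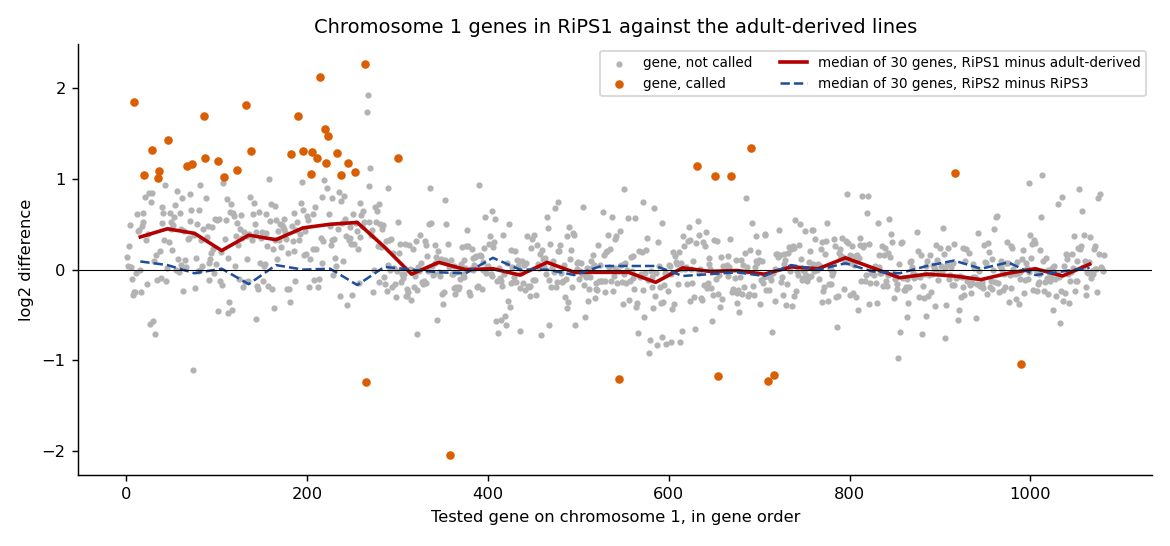
Log2 differences between RiPS1 and the adult-derived lines for tested genes of chromosome 1 in gene order, called genes in orange; the red line joins medians of 30 genes and the dashed blue line those of RiPS2 minus RiPS3. The first 10 red medians are 0.21 to 0.52 and the next is -0.05.

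Split into deciles by gene order, the 20 autosomes gave 200 groups of genes. The median was at least 0.2 in size in 3 of them, the first 3 deciles of chromosome 1 (0.36, 0.40 and 0.32), and the others lay between -0.16 and 0.18.

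**Figure D4:**
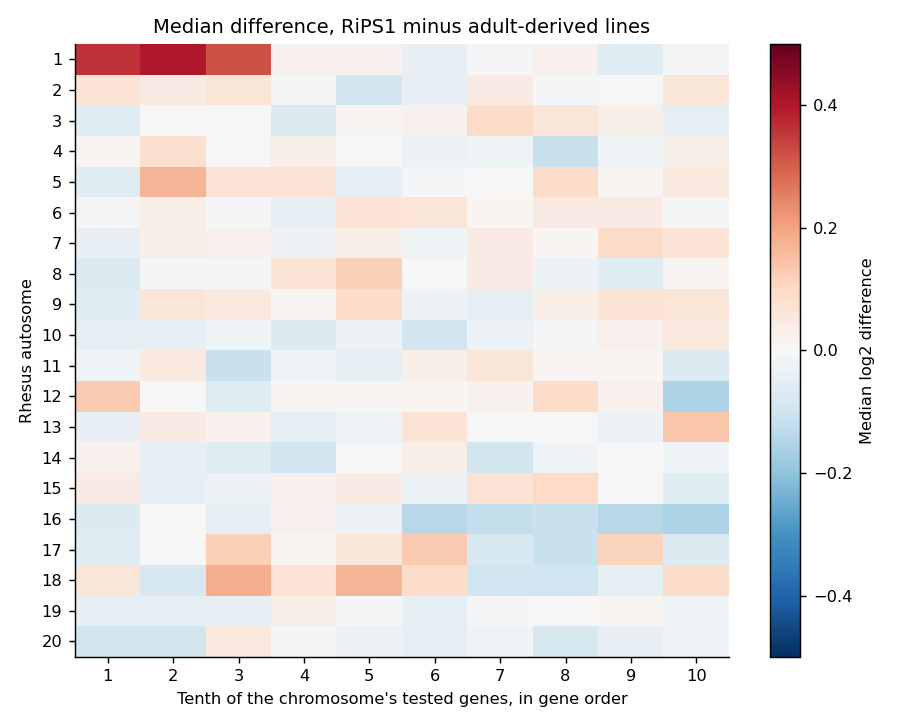
Median log2 difference between RiPS1 and the adult-derived lines in deciles of each autosome by gene order. The first 3 deciles of chromosome 1 stand out at 0.32 to 0.40, and all others lie between -0.16 and 0.18.

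Since labelled sex goes with donor stage, the labelled male embryonic lines ORMES23 and CRES-1 were set against the female CRES-3, a comparison that shares no array with the induced lines but uses the same estimate of the spread. Its female side is the single line CRES-3, so labelled sex and line identity coincide there too and cannot be told apart. The comparison called 183 autosomal genes (1.79%), or 89 without CRES-3 replicate A and 105 without CRES-3 replicate B. Of the 85 agreeing higher genes 3 were also higher there (3.53%, against 0.888% of all autosomal genes), APCDD1, DKK3 and RBMS3, and 1 gene without a full symbol was lower. Of the 32 agreeing lower genes 10 were also lower (31.2%, against 0.898%). Those with a full symbol were CADPS2, CLDN7, MAMU-AG, PON3, RAB25, SH3YL1, TANGO6 and ZNF799. Of the genes in these shares, RBMS3 passed the filter on low values through its RiPS1 arrays alone. PON3, ZNF799 and a placeholder gene passed it through their adult-derived arrays alone. The agreeing genes were also chosen for large differences between lines. The share over all autosomal genes is therefore not a matched background, and the excess was not tested. DHRS2 was the 1 lower gene called in the opposite direction, with a difference of 1.55. FAIM and PEG3 differed by -0.06 and -0.04 in the embryonic lines.

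**Figure D5:**
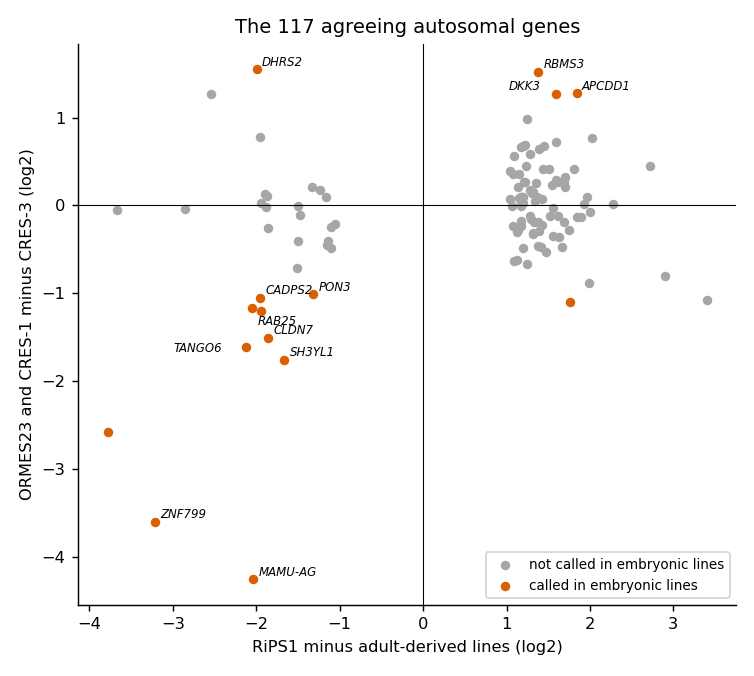
The 117 agreeing genes by their log2 difference between RiPS1 and the adult-derived lines (x axis) and between ORMES23 with CRES-1 and CRES-3 (y axis); orange points were called in the embryonic comparison, and placeholder genes are not labelled. MAMU-AG (-4.26) and ZNF799 (-3.60) have the lowest embryonic values.

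The interaction, which is the RiPS1 minus adult-derived difference less the ORMES23 and CRES-1 minus CRES-3 difference, called 478 autosomal genes (4.67%). It called 60 of the 85 agreeing higher genes and 17 of the 32 agreeing lower ones, a share that the selection on the first of these differences favours.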

How the data were processed

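Gene expression was measured on Affymetrix rhesus arrays of 21 samples in 7 lines, 3 arrays each. The authors deposited log2 intensities per probe set, summarised by RMA, a robust averaging of the probes of a set, per the submitters' processing notes; its version is not given in the sources used here. Of the probe sets 24969 carried 1 gene symbol, 361 several and 27535 none in the platform annotation, and only those with 1 symbol were used, 17340 after the filter. A gene was read from its passing probe set with the highest mean over the 9 induced arrays. Chromosomes and gene order came from the telomere-to-telomere MMU8v2.0 annotation, with no coordinates used. Depth has no counterpart on arrays, and the number of arrays limits the precision.

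From these values limma 3.58.1 in R 4.3.3 fitted a mean per line to all 21 arrays, with 14 residual degrees of freedom, empirical Bayes moderation, two-sided p-values and Benjamini-Hochberg adjustment over 17340 probe sets. Errors are standard errors of the log2 difference. Named genes were the 12 largest agreeing rises and 12 largest falls whose arrays did not overlap, placeholder symbols excepted, up to 4 called members with the smallest adjusted p of each of 26 gene lists, and the transduced factors; any further gene was picked with its values in view. The members and lists were chosen with earlier results of these data known. The adjusted p threshold for RiPS1 minus the adult-derived lines was tried on simulated data, with 200 changed probe sets among 17340 in 10 draws. It recovered 86.1% at a true shift of log2 1 and 99.1% at log2 2, with 5.49% false calls. The simulated noise was independent between arrays and probe sets and had the same spread in all lines. Neither the fold limit nor the agreement rule was applied, so these rates do not describe the counts above. Alternatives were the arrays in the fit, scaling, filter, probe set choice, fold limit, array weights, a replicate block, the line as replicate and each array left out. The letters A, B and C were not treated as pairs. Deviations of same-letter arrays of different lines correlated at -0.423 to 0.342, and 5 of 9 such pairs exceeded 0.1. Arrays with different letters ranged as widely, at -0.526 to 0.442, with 7 of 18 above 0.1. Some deviations were thus shared between arrays of different lines whatever their letter.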

Additional observations from a re-analysis of the deposited data

Results flagged for a closer look

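In 21 named genes the difference between RiPS1 and the adult-derived lines differed from that between the male embryonic lines and CRES-3, by the interaction in limma at an adjusted p under 0.05 with a size of at least log2 1. The genes were named for their difference in the induced lines, which is 1 side of this interaction. Where RiPS1 was low, the interaction was -3.81 in SCD5, -3.61 in FAIM, -3.55 in DHRS2, -2.81 in PEG3, -2.74 in BMP4, -2.02 in ITCH, -1.97 in SERPINB6 and -1.18 in CLDN4. RiPS1 averaged under log2 5 in SCD5, FAIM, DHRS2 and PEG3, so their interactions are not measured ratios. In SCD5 and DHRS2 the embryonic difference was positive, at 1.27 and 1.55. MAMU-AG and MAMU-A were lower in RiPS1 but lower still in the male embryonic lines, which gave positive interactions of 2.22 and 1.29.

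Where RiPS1 was high, the interaction was 3.70 in COL6A3, 2.87 in CRYGB, 2.27 in HOXD1, 2.26 in EPHX1, 2.03 in TCERG1L, 2.02 in FEZ1, 1.91 in ADH4, 1.87 in SHC2 and 1.69 in IFIT3. The embryonic differences were -0.80 in COL6A3 and -0.88 in CRYGB, and between -0.49 and 0.45 in these others. The fitted interactions of 4.48 in EBF2 and 1.98 in TRIM58 are not measured sizes, since both genes passed the filter on low values through RiPS1 alone and the other lines lay at or below log2 5 in most arrays.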

How the results depend on the processing

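All calls measure the spread between arrays of single lines. With the line as the replicate, which leaves 1 residual degree of freedom, 0 genes were called higher and 0 lower in limma, and 922 of 10244 had an unadjusted p under 0.05. Without the fold limit 751 genes were higher and 367 lower, 281 and 100 agreed, RiPS2 and RiPS3 differed in 320, the embryonic lines in 731, and the interaction called 1043. With a test against a fold of 1.5 these counts were 32 and 23, 15 and 6, 8, 17 and 59. Array weights gave 227 genes between RiPS2 and RiPS3, 314 in the embryonic lines and 757 in the interaction, and the 9 induced arrays alone gave 73 between RiPS2 and RiPS3. Leaving out each array in turn gave 56 to 92 agreeing higher genes, the lowest without RiPS1 replicate A, 39 to 259 genes between RiPS2 and RiPS3, and 89 to 249 in the embryonic lines, the lowest without CRES-3 replicate A. Genes higher in RiPS1 stayed at 118 to 193 and agreeing lower genes at 28 to 34. A replicate block on the letters gave 165 higher and 67 lower genes, changed no count by over 1.5 times, and ended the call of HAND1 (adjusted p of 0.066).

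SOX2, not called, changed sign, at 0.03 with median centring, 0.06 with the mean of all probe sets, and -0.07 to 0.10 without single arrays. MEGF10 ran from -0.10, without RiPS1 replicate A where its other probe set is read, to 2.34, and missed the fold limit at 0.93 with the mean of its probe sets. Of 41 named genes, which include the transduced factors that had no call to lose, 18 lost their call under some setting. EBF2 and TRIM58 were tested in only 17 and 16 of the 20 settings and are counted over those alone. The median of the chromosome 1 region, an alternative chosen after seeing the data, stayed at 0.36 to 0.42 without single arrays.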

Other observations

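Some further agreeing higher genes are given as single values; they were picked after their values were seen and no theme was tested. They include the intermediate filament genes PRPH (1.51) and SYNM (1.52), DCLK1, a microtubule-associated kinase gene (1.28), the membrane protein genes SLITRK5 (1.24), CNTNAP2 (1.24) and ISLR2 (1.24), and the guidance receptor gene EPHA3 (1.59). EMILIN1 was at 1.43, the serine protease gene HTRA1 at 1.37 and COL5A3 at 1.13. Among agreeing lower genes OVOL2, a regulator of epithelial identity, was at -1.51. The membrane protease gene TMPRSS13 had a fitted difference of -1.50. That is not a measured size, since TMPRSS13 passed the filter on low values through its adult-derived arrays alone.

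The skin fibroblast level was nearer to RiPS1 than to the adult-derived mean in 26 of the 85 agreeing higher genes and in 17 of the 32 lower ones, against 4660 of 10244 autosomal genes. X-linked genes, left out of the counts above, had 47 of 413 higher and 1 lower in RiPS1, with a median of 0.16, where 1.59% of autosomal genes were higher and 0.664% lower. The first 4 deciles of that chromosome in gene order had medians of 0.38, 0.53, 0.53 and 0.74, and the other deciles lay between -0.01 and 0.19. In those 4 deciles RiPS1 was also above the labelled male lines. The medians were 0.75, 0.48, 0.52 and 0.59 against ORMES23 and 0.54, 0.53, 0.50 and 0.79 against CRES-1. ORMES23 and CRES-1 minus CRES-3 had -0.07, -0.07, 0.03 and -0.02 there. A cause was not tested.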
